A study of Danio rerio with 3 samples.

Results

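In the CreLox liver tumour, 953 of 2112 droplets were shallow and carried almost no mitochondrial RNA, and they are set here against 186 deep droplets of the same library. Shallow droplets were selected on measured values: more than 800 and fewer than 5000 unique molecular identifiers (UMIs, each standing for 1 captured transcript), under 2% of UMIs in transcripts of the mitochondrial genome, and 0 UMIs of c1qa, c1qb, c1qc, ccl38.6 and tmem88a. Deep droplets were chosen by 10000 UMIs or more alone. The whole series held 6055 droplets. Depth, mitochondrial share and those 5 genes are therefore given as a description only.

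The CreLox zebrafish carried Tg(fabp10a-CreERT2;fabp10a-flox-beta-catenin). The fabp10a promoter drives both transgenes in hepatocytes, and 10 µM 4-hydroxytamoxifen, given between day 3 and day 6, lets the recombinase remove the EBFP cassette and start an activated Xenopus β-catenin. A single 6-month-old liver with hepatocellular carcinoma (HCC) was dissociated for droplet sequencing, so every shallow and deep droplet shares 1 animal, 1 dissociation and 1 library. The no HCC liver came from a fish with Tg(fabp10a-flox-beta-catenin) alone, given the same tamoxifen, and the HepABC liver from an untreated Tg(fabp10a-pt-beta-catenin) fish with HCC that, per the methods, also carried the Wnt reporter Tg(7xTCF-Xla.Siam:mCherry), both 6 months old.

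Hepatocytes make most proteins of the blood plasma. Messenger RNAs for secreted and membrane proteins are translated on ribosomes bound to the endoplasmic reticulum (ER), whereas those for cytosolic enzymes are translated largely on free ribosomes. Transcripts of the mitochondrial genome stay inside the organelle. Droplet methods count whatever polyadenylated RNA enters a droplet, whether from a whole cell, a damaged cell or the surrounding fluid.

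Shallow droplets held up to 4984 UMIs with a median of 1643, and deep droplets 10117 to 57876 with a median of 24906.5. The mitochondrial share had a median of 0.780% in shallow droplets (lowest 0.0392%, highest 2.00%) and 5.77% in deep droplets (lowest 0.176%, highest 17.0%). In all, 1792 droplets had fewer than 5000 UMIs, 1114 of them were under the mitochondrial limit, and 161 of those were dropped for UMIs of the 5 genes. The limits fell within a continuous range: 51 shallow droplets lay between 1.8 and 2% mitochondrial, and 34 droplets of the same depth, without the 5 genes, lay between 2 and 2.2%. The shallow droplet with the most UMIs had 4984 and the nearest one outside 5000. The shallowest deep droplet had 10117 UMIs and the deepest droplet below the limit 9974. Barcodes were shared with another library by 5 shallow and 2 deep droplets.

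**Figure D1:**
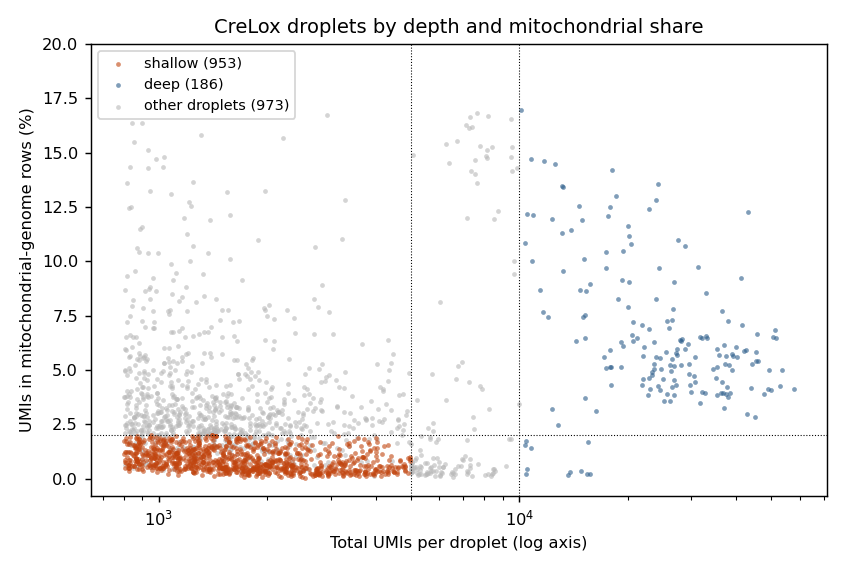
Each point is a CreLox droplet, by total UMIs (x, log axis) and percent of UMIs in mitochondrial-genome rows (y), with dotted lines at 5000 and 10000 UMIs and at 2%. The 953 shallow droplets fill the lower left, while most of the 186 deep droplets lie above 2% and 7 lie under 1%.

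Both groups carried the hepatocyte markers. Levels are in CPM, the UMIs of a gene summed over droplets and scaled to the summed UMIs without mitochondrial rows. The liver fatty acid binding protein gene fabp10a had UMIs in 100% of shallow and 100% of deep droplets, at 60766 CPM in shallow and 50557 CPM in deep droplets. EBFP, listed as tgEBFP, had UMIs in 99.2% of shallow and 100% of deep droplets. A droplet with fabp10a UMIs need not hold a hepatocyte: in 350 droplets of shallow depth with 3 or more UMIs of the 5 genes, fabp10a was also in 100% of droplets, at 13860 CPM, and tgEBFP in 85.7%, at 1441 CPM against 9117 CPM in shallow droplets. Median depths were 1643 UMIs in shallow droplets and 1644.5 UMIs in that comparison set. Per droplet, fabp10a ranged between 2936 and 154601 CPM in shallow droplets (median 60569) and between 1325 and 110337 CPM in deep droplets (median 50794).

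A few droplets of other makeup were in each group. Summed over lists of immune, endothelial and stellate, bile duct, red cell and thrombocyte genes, without fn1b, 29 shallow and 3 deep droplets reached 1% of UMIs. Haemoglobin transcripts sat almost wholly in 6 shallow droplets, which held 3115 of the 3214 globin UMIs. Among deep droplets, 4 with 1 to 2% mitochondrial UMIs had 9248 CPM of fabp10a and 10909 CPM of the immune list. The immune list as a whole stood at 517 CPM in shallow and 257 CPM in deep droplets, a ratio of 2.01 that was 0.97 when shallow droplets were held under 1% mitochondrial, 3.42 with no mitochondrial limit and 10.8 against deep droplets with 0 UMIs of the 5 genes.

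Comparisons below rest on 1828967 non-mitochondrial UMIs in shallow and 4622347 in deep droplets. With 1 library there is no replicate, no test was possible, and intervals are exact 95% limits for a ratio of Poisson counts, which cover counting error only. Of 2687 genes with at least 100 UMIs over both groups, 276 (10.3%) were at or below 0.5 of their deep level in shallow droplets and 115 (4.28%) were 2-fold or more higher. The interval lay wholly past the fold for 132 of the lower and 18 of the higher genes. The median log2 ratio over all tested genes was 0.21, shallow over deep, and class medians are to be read beside it. Of all tested genes 61.1% were above 1, and class counts are to be read beside these shares.

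Transcripts for proteins that hepatocytes secrete into plasma had one of the lowest ratios of the hepatocyte classes listed, apart from the mitochondrial genome, close to cytochrome P450 at 0.561. Their sum was 50971 CPM in shallow and 93417 CPM in deep droplets, a ratio of 0.55 (0.542 to 0.550). Of 62 tested members, 61 were under 1 and 31 at or below 0.5, with a median log2 ratio of −1.02. The only member above 1 was rbp2b, at 1535 CPM in shallow and 1366 CPM in deep droplets, which encodes a cellular retinol-binding protein that is not secreted. Per droplet the class took a median of 4.53% of UMIs in shallow droplets (lowest 0.244%, highest 24.1%) and 9.10% in deep droplets (lowest 0.111%, highest 22.5%), so the ranges overlapped, while 831 of 953 shallow droplets (87.2%) lay below the deep median.

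Genes of complement component 3 were among the lowest of that class. The 7 complement component 3 rows summed to 519 CPM in shallow and 3464 CPM in deep droplets, a ratio of 0.150 (0.140 to 0.160). Of them, 5 were tested (c3a.1, c3a.2, c3a.3, c3a.6 and c3b.2). The most abundant, c3a.1, had 311 CPM in shallow and 2043 CPM in deep droplets, a ratio of 0.152 (0.140 to 0.166). The fifth component c5 had a ratio of 0.187, c4 of 0.203 and the pore-forming c9 of 0.383. Among other complement genes, cfh (0.268), masp1 (0.361), cfhl1 (0.363) and masp2 (0.376) were also low. Nearer to the class ratio were c8a (0.406), cfb (0.440) and c8g (0.452), and c8b (0.566) and cfhl4 (0.617) lay above it. The protease inhibitor a2ml (alpha-2-macroglobulin-like) had 67.8 CPM in shallow and 444 CPM in deep droplets, and coagulation factor f5 59.6 and 334 CPM.

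Several other secreted products were less reduced. Transferrin a (tfa), the iron carrier of plasma and the most abundant member, had 16189 CPM in shallow and 30368 CPM in deep droplets (0.533, 0.526 to 0.540). The fibrinogen chains fga, fgb and fgg had ratios of 0.584, 0.509 and 0.549, and haemopexin (hpx) of 0.461. Serine protease inhibitors lay higher, with 0.692 for serpina1, 0.679 for serpina1l and 0.720 for the antithrombin gene serpinc1. Vitamin D-binding protein (gc) was nearest to unchanged among the secreted members, at 313 CPM in shallow and 362 CPM in deep droplets. The iron hormone hamp (0.266) and the insulin-like growth factor binding protein igfbp1a (0.203) were as low as some complement genes. Also low were itih3a (0.323), cp (0.350), rbp4 (0.354), plg (0.394) and agt (0.397).

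**Figure D2:**
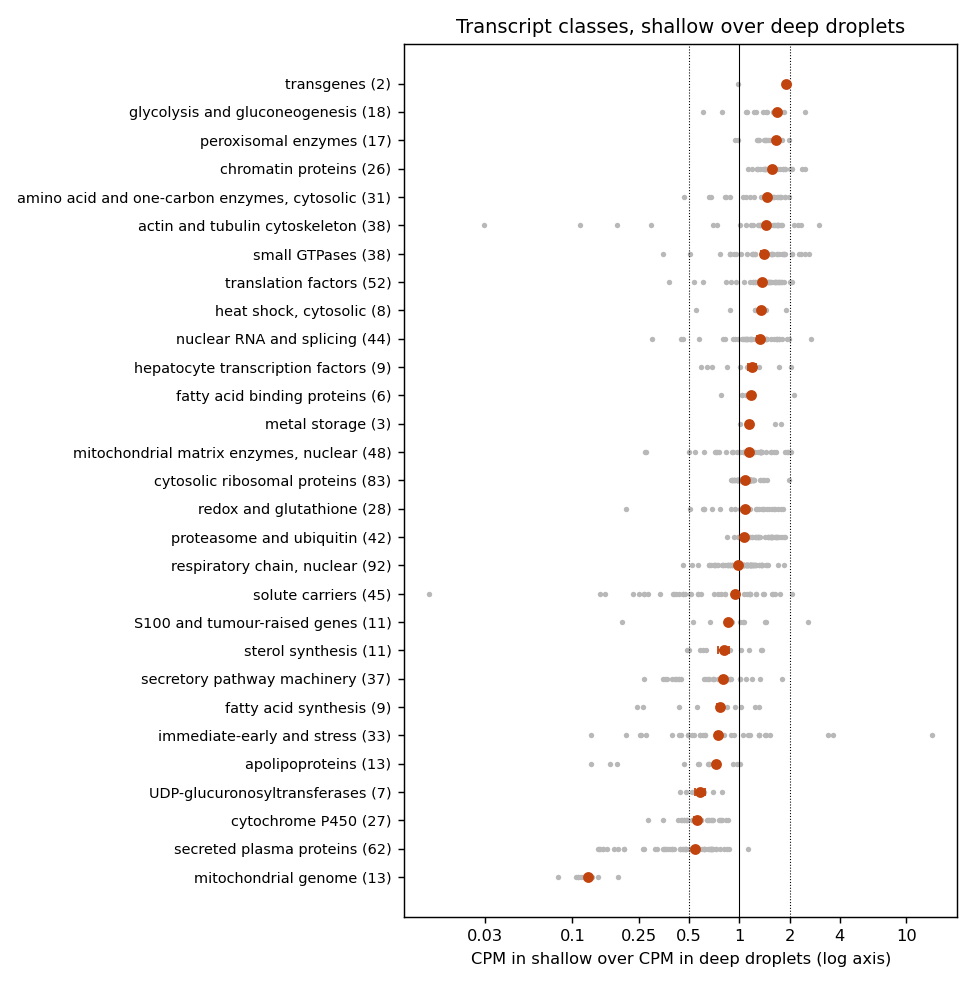
Red points are the ratio of summed CPM, shallow over deep droplets (x, log axis), for each transcript class, with exact 95% intervals. Grey points are single genes of the class with at least 100 UMIs, and the number of such genes (for the mitochondrial genome, of its rows) is in brackets. Secreted plasma proteins (0.55) and cytochrome P450 (0.56) lie low and glycolysis (1.69) and peroxisomal enzymes (1.66) high.

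Apolipoproteins, the protein parts of lipoprotein particles, divided by member. The 3 genes of apolipoprotein B, the very large scaffold of low-density particles, were the lowest: apobb.1 had 359 CPM in shallow and 2133 CPM in deep droplets (0.168, 0.155 to 0.182), apoba a ratio of 0.185 and apobb.2 of 0.129. Among the small apolipoproteins, apoa2 had 39476 CPM in shallow and 60388 CPM in deep droplets (0.654, 0.648 to 0.659) and apoa1b 24994 and 33624 CPM (0.743). By contrast, apoc1 (0.969), apoc2 (0.918) and apoa1a (1.01, 0.989 to 1.03) lay close to their deep level. The class sum was 0.721 (0.717 to 0.725), with 4 of 13 members at or below 0.5.

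Membrane enzymes of the ER were also lower in shallow droplets. All 27 tested cytochrome P450 genes, which oxidise drugs, steroids and fatty acids, were under 1 and 10 were at or below 0.5. Not all are ER enzymes: cyp27a7 (0.851, the highest) and cyp27a1.4 (0.755) belong to a mitochondrial family. All 55 listed cytochrome P450 genes summed to 1515 CPM in shallow and 2699 CPM in deep droplets (0.561, 0.538 to 0.585). The xenobiotic-inducible cyp1a had a ratio of 0.347 (0.294 to 0.409), cyp2x12 of 0.285, and the bile acid enzyme cyp8b1 of 0.549. All 7 tested UDP-glucuronosyltransferases, which conjugate substrates in the ER lumen, were likewise under 1, with a class ratio of 0.581 (0.544 to 0.620). That list, the solute carriers and the small GTPases were added after values had been seen.

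The machinery of secretion was reduced less than its cargo. Several ER chaperones and folding enzymes were low: canx (calnexin) had a ratio of 0.268, hyou1 of 0.348, the disulphide isomerase p4hb of 0.358, hsp90b1 of 0.370 and hspa5 (BiP) of 0.445, the last with 173 CPM in shallow and 388 CPM in deep droplets. Others were nearer to 1, with 0.618 for dnajb11, 0.646 for manf, 0.696 for pdia6 and 0.777 for pdia3, and the oligosaccharyltransferase subunit ddost was at 0.420. Subunits of the signal sequence receptor lay between 0.800 (ssr2) and 0.861 (ssr4). The small translocon subunits sec61g (1.02) and sec61b (1.2), the signal recognition particle protein srp9 (1.33) and the vesicle SNARE sec22ba (1.8) were not reduced. Of 37 tested genes, 31 were under 1 and 10 at or below 0.5, and the sum had a ratio of 0.795 (0.776 to 0.814).

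Solute carriers separated by the membrane they serve, a split made after the values were seen. The slc25 family, carriers of the inner mitochondrial membrane, had 7958 CPM in shallow and 6845 CPM in deep droplets (1.16, 1.14 to 1.19), with 11 of 14 tested members above 1. Its median log2 ratio was 0.27, near the 0.21 of all tested genes, of which 61.1% were above 1. Its ADP/ATP carrier slc25a5 had a ratio of 1.16 and the dicarboxylate carrier slc25a10 of 2.07. All other solute carriers together had 1775 CPM in shallow and 3558 CPM in deep droplets (0.499, 0.480 to 0.518), with 27 of 31 under 1 and 15 at or below 0.5. Among them were the amino acid transporters slc38a4 (0.269) and slc38a3a (0.157), the exporter slc47a1 (0.147), the glucose transporter slc2a2 (0.516) and the bile acid transporter subunit slc51a (0.461).

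Genes encoded in the nucleus for mitochondria did not follow the mitochondrial genome. The 13 mitochondrial-genome rows, which the selection used, had 8115 CPM in shallow and 65248 CPM in deep droplets (0.124), and the rows with more than 10 UMIs in shallow droplets lay between 0.105 (mt-atp6) and 0.142 (mt-co3). Nuclear genes of the respiratory chain had 25917 CPM in shallow and 26474 CPM in deep droplets (0.979, 0.969 to 0.989), and 1 of 92 was at or below 0.5, none at 2 or above. Nuclear genes for matrix enzymes had a class ratio of 1.14 (1.12 to 1.17), or 0.981 with TMM factors, an alternative scaling. Within it the pyruvate carboxylase gene pcxa (0.273) and the oxoglutarate dehydrogenase gene ogdha (0.276) were lowest, while mdh2 was 1.61 and idh3b 2.05.

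Cytosolic metabolism held the larger share in shallow droplets. Glycolysis and gluconeogenesis had 50877 CPM in shallow and 30182 CPM in deep droplets, a ratio of 1.69 (1.67 to 1.70). Of 18 tested genes, 16 were above 1, against 61.1% of all tested genes. The dehydrogenase gene gapdh had 10021 CPM in shallow and 6099 CPM in deep droplets (1.64, 1.61 to 1.67). The ratio was 1.70 for the liver pyruvate kinase pklr, 1.59 for fructose bisphosphatase fbp1b and 1.77 for pgk1. The 2 members under 1 were g6pca.2 (0.608, 0.551 to 0.671) and g6pca.1 (0.789), which encode glucose-6-phosphatase, a membrane enzyme of the ER. The median share per droplet was 4.98% in shallow (lowest 0.265%, highest 12.6%) and 3.03% in deep droplets (lowest 0.315%, highest 6.27%), and 130 of 953 shallow droplets (13.6%) lay below the deep median.

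**Figure D3:**
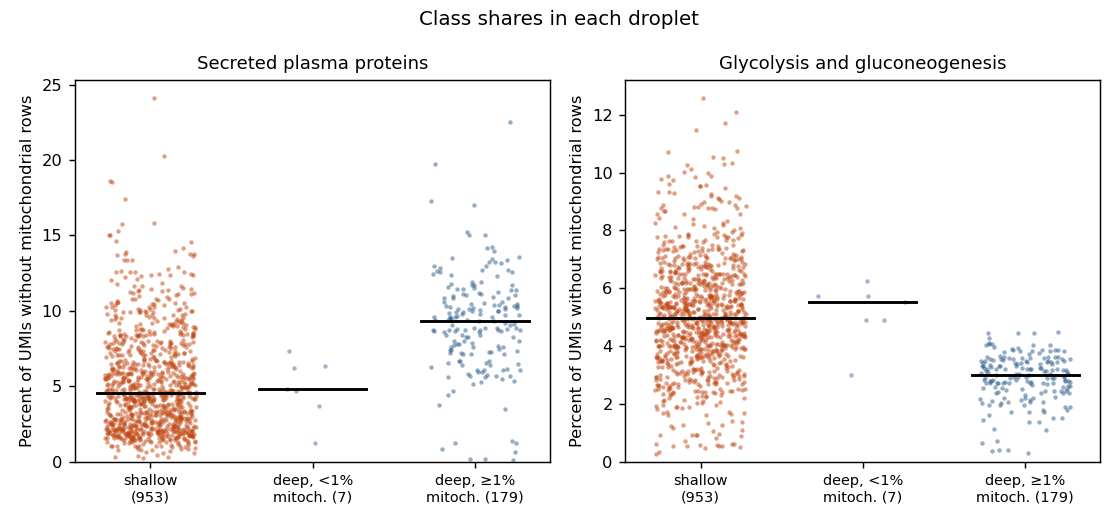
Each point is a droplet and black lines are medians. The y axes give the percent of non-mitochondrial UMIs in secreted plasma proteins (left) and glycolysis and gluconeogenesis (right). The 953 shallow droplets have medians of 4.53% and 4.98%. The 186 deep droplets are divided into 7 under 1% mitochondrial, which lie among the shallow ones, and 179 at 1% or more.

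Amino acid and one-carbon enzymes of the cytosol had a ratio of 1.46 (1.44 to 1.47). Of 31 tested genes, 25 were above 1, against 61.1% of all tested genes, and none was at 2 or above. Betaine-homocysteine methyltransferase (bhmt) had 9736 CPM in shallow and 7246 CPM in deep droplets. The tyrosine-degrading dioxygenase hpda (1.87) and the folate enzyme aldh1l1 (1.97) were higher still. The 1 gene at or below 0.5 was mthfd1b (0.468). Peroxisomal enzymes, also made on free ribosomes, had 8886 CPM in shallow and 5347 CPM in deep droplets (1.66, 1.63 to 1.70), led by urate oxidase (uox) with 4645 CPM in shallow and 2338 CPM in deep droplets. Catalase (cat), the peroxide-degrading enzyme, was an exception at 0.94 (0.877 to 1.01).

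In sterol synthesis the ER-membrane enzymes cyp51 (0.485), dhcr7 (0.501), hmgcra (0.580), ebp (0.604) and msmo1 (0.630) were low, while the soluble enzymes hmgcs1 (1.03), mvda (1.14), fdps (1.35) and acat2 (1.36) were not. The ER-membrane enzymes tm7sf2 (0.778) and nsdhl (0.877) were less reduced. Redox genes did not divide cleanly: the microsomal glutathione transferases mgst1.2 (0.507) and mgst3b (0.614) and the ER peroxiredoxin prdx4 (0.767) were low, and the cytosolic prdx2 (1.41), gstp1 (1.31) and gstr (1.77) were high, but the glutathione peroxidases gpx4a (0.603, 0.578 to 0.628) and gpx1a (0.897) also lay under 1. In fatty acid synthesis the cytosolic enzymes acaca (0.243, 0.190 to 0.306) and fasn (0.266, 0.210 to 0.333) were the lowest of 9, below the ER elongases elovl5 (0.435) and elovl6 (0.561). The ER desaturase fads2 (0.848, 0.784 to 0.917) and the elongase elovl2 (0.945, 0.834 to 1.07) lay nearer to 1.

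Ribosomal protein transcripts, the most abundant class, were nearly level. They had 288586 CPM in shallow and 265170 CPM in deep droplets (1.09, 1.08 to 1.09, and 0.935 with TMM factors), and 0 of 83 tested genes passed 2-fold in either direction. The lowest was rps21 (0.888). The highest listed, rps19bp1 (1.99, 1.36 to 2.91), encodes a binding protein of Rps19 and not a ribosomal protein. It had 52 UMIs in shallow and 66 in deep droplets. Among ribosomal protein genes proper, rpl4 had a ratio of 1.46. Translation factors had a ratio of 1.37 (1.36 to 1.39), with 46 of 52 above 1, against 61.1% of all tested genes. Of these, eef1a1l1 alone had 11848 CPM in shallow and 8683 CPM in deep droplets. The 1 factor at or below 0.5 was eif4g1a (0.380). Proteasome and ubiquitin genes had a ratio of 1.07, or 0.921 with TMM factors, with 0 of 42 past 2-fold.

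Transcripts for chromatin proteins were all above 1 in shallow droplets, 26 of 26, against 61.1% of all tested genes. The class had 5 genes at 2 or above, against 4.28% of all tested genes, and a ratio of 1.56 (1.52 to 1.61). The histone chaperone setb had 104 CPM in shallow and 42.0 CPM in deep droplets (2.48, 2.02 to 3.04), and the high-mobility-group genes hmgb2b and hmgn2 had ratios of 2.07 and 2.03. The small GTPase list had a ratio of 1.41 (1.36 to 1.45), with 30 of 38 above 1, against 61.1% of all tested genes. Its 1 gene at or below 0.5, cdc42bpb (0.350), encodes a Cdc42-binding kinase and not a small GTPase. The listed arl6ip1 (0.956) likewise encodes a binding protein. Cytoskeletal genes had a ratio of 1.45 (1.43 to 1.48), with 5361 CPM of actb2 in shallow and 3169 CPM in deep droplets. Of 38 tested, 32 were above 1, 4 at 2 or above and 4 at or below 0.5, the lowest krt91 (0.0297). The share at or below 0.5 was near the 10.3% of all tested genes. All 170 deep UMIs of krt91 lay in 3 droplets and its 2 shallow UMIs in 1. In that list pfn1 (profilin, 3.02) was concentrated: 4 droplets held 20.9% of its UMIs in shallow and 68.1% in deep droplets, and with shallow droplets held under 1% mitochondrial its ratio was 1.07.

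Of regulators, the hepatocyte factors cebpa (2.04) and hnf4a (1.72) were higher in shallow droplets, and the membrane-bound factor creb3l3a (0.682) was lower. Of the 9 tested factors 4 were under 1, namely creb3l3a, nr1d2a (0.591), gata6 (0.643) and foxa3 (0.849, 0.584 to 1.21). Summed over all 36 listed factors the ratio was 1.19 (1.13 to 1.26). Immediate-early and stress genes, whose mRNAs are short-lived, went both ways, with 10 of 33 at or below 0.5 and 3 at 2 or above. The stress factor atf3 had 14.2 CPM in shallow and 110 CPM in deep droplets (0.129, 0.0835 to 0.191), egr1 a ratio of 0.255 and junba of 0.393. The ratio of fosb was 0.257 (0.168 to 0.380), and 1.28 with no mitochondrial limit. The phosphatase gene dusp2 had 85 UMIs in shallow and 15 in deep droplets (14.3, 8.21 to 26.7), and between 3.95 and 29.4 over the alternatives. The ratio of klf2a was 3.66, and 0.158 with shallow droplets held under 1% mitochondrial.

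Transgene transcripts differed from each other. EBFP had 9117 CPM in shallow and 4600 CPM in deep droplets (1.98, 1.94 to 2.02). The Xenopus β-catenin row xeno-Bcat had 330 CPM in shallow and 337 CPM in deep droplets (0.979, 0.889 to 1.08). The row was also read in no HCC, whose fish carries no recombinase, over droplets with under 1% of other-cell transcripts. There it had 295 CPM in shallow and 328 CPM in deep droplets, so its counts do not measure recombined β-catenin alone. Both were driven by the fabp10a promoter, and fabp10a itself had a ratio of 1.2 (1.19 to 1.21). The mcherry row had 20 UMIs in shallow and 38 in deep droplets, with an interval of 0.733 to 2.34.

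Among genes with at least 200 UMIs, the 15 lowest ratios were those of cfd, apobb.2, atf3, fn1b, c3a.3, c3a.2, slc47a1, si:dkey-8k3.2, c3a.1, a2ml, slc38a3a, CT027638.1, c3a.6, cxcl18b and si:ch211-212c13.8. They ranged between 0.0680 (cfd) and 0.168 (si:ch211-212c13.8). Fibronectin fn1b had 145 CPM in shallow and 1060 CPM in deep droplets and was found in 23.6% of shallow and 95.7% of deep droplets. The complement factor D gene cfd was different, since 99.0% of its 595 deep UMIs lay in 4 droplets. Similarly, 4 deep droplets held 58.8% of the UMIs of the chemokine cxcl18b.

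The 15 highest were led by 4 globin rows, si:ch211-5k11.8, hbaa1, hbba1.1 and hbba1, which had 2 to 7 UMIs in deep droplets and belonged to the few shallow droplets above. Leaving out droplets with 1% or more of other-cell transcripts brought hbba1 to 3.45, hbba1.1 to 6.66, hbaa1 to 12.9 and si:ch211-5k11.8 to 15.5. The proteoglycan gene srgn (5.00), pfn1 and ponzr1 (2.73) followed, and their ratios were 1.17, 1.07 and 0.44 with shallow droplets held under 1% mitochondrial. The others were spread over many droplets: tefa, a circadian bZIP factor, at 2.70, cdc42, a small GTPase of cell polarity, at 2.63 (2.13 to 3.25), ndrg1a at 2.61, setb at 2.48, the SNARE vamp3 at 2.47, the chaperone partner st13 at 2.44, the pyrimidine-degrading upb1 at 2.40 and the histone row h3f3b.1.1 at 2.38. The UMIs of cdc42 came from 162 shallow and 104 deep droplets.

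The 6 lists for secreted plasma proteins, apolipoproteins, cytochrome P450, glucuronosyltransferases, secretory machinery and solute carriers held 73 of the 276 lower genes (26.4%) and 1 of the 115 higher genes (0.870%), against 191 of all 2687 tested genes (7.11%). The single higher gene among them was slc25a10. Since the lists were chosen with results of these data known, those shares are a description.

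At equal depth the contrast stayed visible droplet by droplet. Each droplet was thinned to 800 UMIs, and shallow droplets then had a median of 327 genes and deep droplets 323, against 505 and 2293 before thinning. A c3a.1 UMI was found in 21.9% of shallow droplets (19.3 to 24.7%, exact binomial) and 69.4% of deep droplets (62.2 to 75.9%), and unthinned in 39.3% and 96.8%. In the 350 droplets with 3 or more UMIs of the 5 genes the thinned share was 14.3% (10.8 to 18.4%). For apobb.1 the thinned shares were 25.1% in shallow and 75.8% in deep droplets, with 16.3% in those 350 droplets, and for a2ml 5.56% and 27.4%, with 2.29%. The share for atf3 was 1.26% in shallow (0.652 to 2.19%) and 8.06% in deep droplets. In the 350 droplets the atf3 share was 1.71% (0.632 to 3.69%), near the shallow share. A gapdh UMI was in 98.1% of thinned shallow and 96.8% of thinned deep droplets, with 69.7% in those 350 droplets.

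Under 2% mitochondrial the profile changed little with depth. It also differed with the mitochondrial share, and for secreted plasma proteins the direction depended on depth. Secreted plasma proteins under 2% mitochondrial had 53548 CPM in the shallowest bin (median 1006.5 UMIs, n = 284), 52422 CPM in the next (median 1566, n = 326), 49533 CPM between 2000 and 5000 UMIs (median 2821, n = 343) and 63058 CPM between 5000 and 10000 UMIs (median 5754, n = 80). At 2% or more they had 53715 CPM in the shallowest bin (n = 207), 35901 in the next (n = 84) and 46351 between 2000 and 5000 UMIs (n = 54). At that share they had 140953 CPM between 5000 and 10000 UMIs (n = 31). At 20000 UMIs or more they had 98316 CPM (n = 109), and no droplet there was under 2%. Glycolysis was lower at the higher share, with 46537 CPM under 2% and 24967 CPM at 2% or more among droplets between 5000 and 10000 UMIs. Between 2000 and 5000 UMIs it had 50518 and 33344 CPM in that order.

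In the deep group 7 droplets were under 1% mitochondrial, at 10471 to 15685 UMIs. Their secreted plasma proteins stood at 47554 CPM (46204 to 48933), beside 50971 CPM in shallow droplets and 93417 CPM in all deep droplets. Their glycolysis stood at 51810 CPM, beside 50877 and 30182 CPM, and fabp10a at 64386 CPM. The secreted share of the 7 droplets ranged between 1.21 and 7.33%, and their glycolysis share between 2.99 and 6.27%. The 4 deep droplets between 1 and 2% had 10909 CPM of the immune list, beside 171 CPM at 5 to 10%, and 4096 CPM of secreted plasma proteins.

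At shallow depth, secreted plasma proteins stayed below the deep level also at higher mitochondrial shares, whereas glycolysis came near it only from 5% upward. Shallow-depth droplets without the 5 genes had 46083 CPM of secreted plasma proteins at 2 to 5% mitochondrial (n = 260), 39502 at 5 to 10% (n = 62) and 73545 at 10% or more (n = 23), each below the 94409 to 99368 CPM of deep droplets at 2% and above. Their glycolysis stood at 41007, 32090 and 34158 CPM over the same bins, beside 28180 to 31533 CPM in those deep droplets. Amino acid and one-carbon enzymes had 25689, 21505 and 23314 CPM, within or near the 21259 to 24596 CPM of the deep bins. Cytochrome P450 genes had 1524, 1184 and 2246 CPM in the same order, each below the 2713 to 2872 CPM of the deep bins. Immune-list transcripts differed over the same bins, with 128 CPM under 0.5%, 1092 at 1 to 2%, 2243 at 2 to 5% and 3362 at 5 to 10%, and 465 at 10% or more. Their part in these class levels was not tested.

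**Figure D4:**
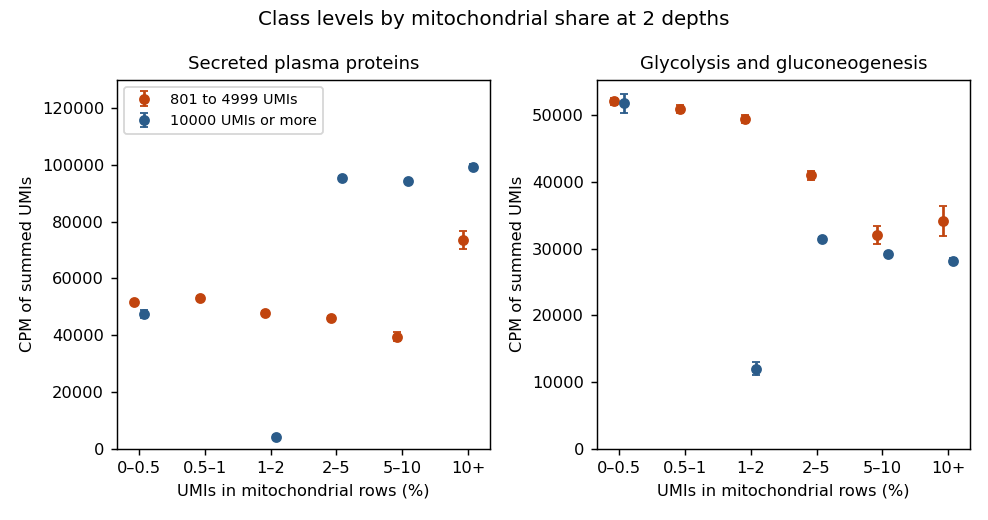
Summed CPM of secreted plasma proteins (left) and glycolysis and gluconeogenesis (right) by mitochondrial share (x, percent) for droplets under 5000 UMIs without the 5 genes (red) and of 10000 or more (blue), with exact 95% binomial intervals. Bins under 2% make up the shallow group. The first deep bin (n = 7) lies at the shallow level, and the deep bin at 1 to 2% (n = 4) holds droplets rich in immune transcripts.

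Set against fabp10a in place of all transcripts, c3a.1, apobb.1 and tfa were again lower and gapdh and EBFP higher in shallow droplets. Per 1000 fabp10a UMIs, c3a.1 had 5.12 UMIs in shallow and 40.4 in deep droplets, and 2.64 (1.51 to 4.29) in the 7 deep droplets under 1% mitochondrial. For apobb.1 the values were 5.90, 42.2 and 3.13 in that order, and for tfa 266, 601 and 238. The glycolytic gapdh had 165 in shallow and 121 in deep droplets, with 151 in the 7 droplets. EBFP had 150 in shallow and 91.0 in deep droplets, with 152 in the 7 droplets. The 350 droplets with 3 or more UMIs of the 5 genes, where fabp10a is low, had 14.5 for apobb.1, 249 for tfa, 136 for gapdh and 104 for EBFP, so tfa lay near the shallow value and EBFP nearer to the deep one.

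**Figure D5:**
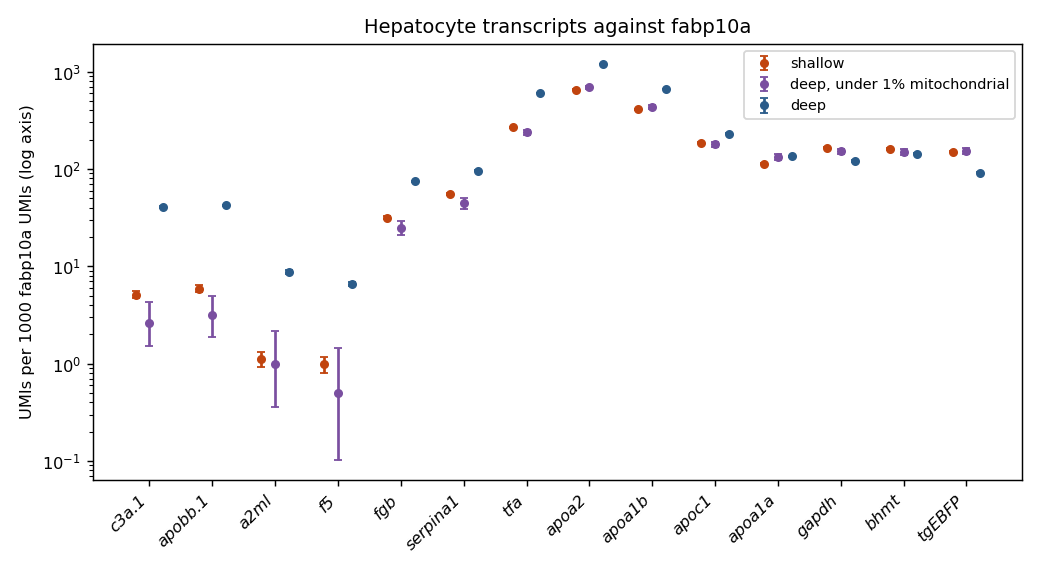
UMIs of 14 hepatocyte transcripts per 1000 fabp10a UMIs (y, log axis) in shallow droplets, the 7 deep droplets under 1% mitochondrial and all 186 deep droplets, with exact 95% intervals for a ratio of Poisson counts. Of c3a.1, shallow droplets (5.12) and the 7 droplets (2.64) lie far below all deep droplets (40.4), and the 7 droplets lie below the shallow ones.

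Shallow droplets with a UMI of s100a10a or s100a10b, annexin partners, numbered 563 and those without 390. Secreted plasma proteins stood at 48283 CPM in droplets with such a UMI and 55283 CPM in droplets without, both far below the deep level, and the chance of holding such a UMI grows with depth (median 1728 and 1541.5 UMIs).

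The same rule was applied to the other livers, which the selection of CreLox droplets had not used. In HepABC it found 8 shallow droplets, too few for a comparison, beside 1938 deep ones. In no HCC it found 129 shallow (median 1344 UMIs, 1.25% mitochondrial) and 213 deep droplets (median 17048 UMIs, 8.46%). Secreted plasma proteins had 61213 CPM in shallow and 103292 CPM in deep no HCC droplets (0.593, 0.582 to 0.603), and cytochrome P450 genes had a ratio of 0.561 (0.506 to 0.620). Glycolysis had a ratio of 1.18 (1.15 to 1.21) and the transgene list, nearly all EBFP, of 1.32 (1.26 to 1.37).

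Many of the no HCC shallow droplets carried other-cell transcripts: 97 of 129 were under 1% on those lists, against 212 of 213 deep droplets. Over these, the ratio was 0.737 for secreted plasma proteins, 0.692 for cytochrome P450, 1.46 for glycolysis and 1.30 for amino acid and one-carbon enzymes. Without that limit the amino acid and one-carbon class had a ratio of 1.04 (1.01 to 1.07). Its median log2 ratio was then 0.03, beside 0.09 for all tested genes. Over the 97 shallow and 212 deep no HCC droplets, c3a.1 had a ratio of 0.217, a2ml of 0.170 and apobb.2 of 0.160. There tfa had a ratio of 0.791, gapdh of 1.36 and EBFP of 1.69 (1.63 to 1.76). Unlike in CreLox, fabp10a was under 1 in those no HCC droplets (0.833, 0.815 to 0.851) and serpina1 was level (1.01, 0.948 to 1.07). These differences between livers were not tested.

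Of 1382 genes tested in both libraries, 179 were at or below 0.5 in CreLox shallow droplets. In no HCC 152 of these were under 1 and 82 at or below 0.5, where 42.8% of all 1382 genes were under 1 and 9.33% at or below 0.5. All 19 genes that were 2-fold or more higher in CreLox were above 1 in no HCC, and 10 were at 2 or above, where 9.99% of all genes were. The 15 lowest CreLox genes were read over no HCC droplets with under 1% of other-cell transcripts. There 12 were under 1 and 11 at or below 0.5. The exceptions were cfd (6.02), cxcl18b (1.28) and slc47a1 (1.05).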

How the data were processed

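For each of 3 livers the deposited file holds raw UMI counts, 1 value per gene and droplet. Per their methods and processing notes, reads were counted with Cell Ranger 2.2.0 on GRCz11 with transgene sequences added. Cells were called with EmptyDrops, which took droplets of 10000 UMIs or more as cells without a test, and cells with outlying quality measures, among them a high mitochondrial share, were removed, so both groups are what those limits left. Free RNA was not subtracted, and doublets were not called (an alternative leaves out the tenth of deep droplets with the most UMIs).

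UMIs were summed over droplets and divided by the sum without mitochondrial rows, with Python 3.11.15, numpy 2.4.6, scipy 1.17.1 and pandas 2.3.3, and edgeR 4.0.16 in R 4.3.3 for TMM factors. Ratios were tested on simulated data. Genes with at least 100 UMIs over both groups were compared, and a 2-fold rule of size was used in place of a test. Counting intervals are at 95%. Named genes were the 15 highest and the 15 lowest ratios among genes with at least 200 UMIs, in each list the 3 most abundant members and its extremes, the rule's genes and both markers. Other members named for their role were chosen after their values were seen. Droplets, members and lists were chosen with earlier results of these data known. Thinning drew 800 UMIs per droplet. A planned comparison by protein length and signal sequence was not run, as no protein table was used here, so remarks on where proteins go are background.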

Additional observations from a re-analysis of the deposited data

Results flagged for a closer look

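Class ratios of shallow over deep droplets lay on opposite sides of 1 in CreLox HCC and no HCC for several lists. The difference between the livers was not tested, since each has 1 library. Redox genes had a ratio of 1.09 in CreLox and 0.809 in no HCC. Over no HCC droplets with under 1% of other-cell transcripts the redox ratio was 0.967 (0.931 to 1.004), an interval that includes 1. Endothelial and stellate genes had 0.723 and 9.55, and bile duct genes 0.647 and 6.38. Over those no HCC droplets the 2 lists had 11.6 and 2.25. The other lists on opposite sides are the 3 that follow. Fatty acid binding proteins, nearly all fabp10a, had a ratio of 1.17 in CreLox and 0.685 in no HCC, or 0.839 over no HCC droplets with under 1% of other-cell transcripts. Immediate-early and stress genes had a ratio of 0.749 in CreLox, or 1.03 with no mitochondrial limit, and 2.43 in no HCC, or 1.62 over those droplets. The S100 and tumour-raised list had a ratio of 0.861 in CreLox and 7.93 in no HCC, or 4.45 over those droplets. In no HCC deep droplets that last list stood at only 434 CPM, against 4901 CPM in CreLox deep droplets.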

How the results depend on the processing

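No paired analysis was possible because each group is one set of droplets of a single library. Without replicates, no count of droplets or genes can stand for animals, and depth limits genes under about 100 UMIs.

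Over 15 alternatives, of which 13 give class values, secreted plasma proteins stayed under 1 and glycolysis above 1. For secreted plasma proteins and glycolysis the ratios were 0.577 and 1.78 with mitochondrial rows in the denominator, 0.527 and 1.63 without fabp10a and the 20 highest genes, 0.469 and 1.45 with TMM factors, 0.472 and 1.46 with median-of-ratios factors, and 0.577 and 1.71 as a mean over droplets. They were 0.536 and 1.65 against deep droplets without the 5 genes, 0.561 and 1.71 for shallow droplets under 1% mitochondrial, 0.536 and 1.61 with no mitochondrial limit, and 0.565 and 1.70 under 2000 UMIs. Secreted plasma proteins were also 0.551 without the tenth of deep droplets with the most UMIs and 0.530 at 2000 UMIs or more. With alternatives chosen after seeing the data, the ratios were 0.554 and 1.72 without droplets with 1% or more of other-cell transcripts, and 0.535 and 1.70 against deep droplets at 2% or more mitochondrial.

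The number of genes 2-fold or more higher depended on scaling: 41 with TMM factors and 43 with median-of-ratios factors, against 115, since both scalings move the median log2 ratio to −0.01 and −0.0017. It was 208 with no mitochondrial limit. With at least 20 UMIs 545 genes were higher and 918 lower, and with 1 UMI in each group 1757 and 1405, mostly genes of few counts. Ribosomal proteins (1.09) turned to 0.935 with TMM factors, as did matrix enzymes (0.981), redox genes (0.934) and the proteasome (0.921), and metal storage to 0.985. With no mitochondrial limit immediate-early genes turned from 0.749 to 1.03 and endothelial and stellate genes from 0.723 to 1.45, and with mitochondrial rows in the denominator nuclear respiratory chain genes from 0.979 to 1.03.

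Of the listed and named values past 2-fold, some turned round. With shallow droplets under 1% mitochondrial these were ponzr1 (0.440), gapdhs (0.847), fgl2a (0.618), arpc1b (0.588), klf2a (0.158) and the immune list (0.968). With no mitochondrial limit they were colec11 (1.53) and fosb (1.28). The cause was not tested. The planned removal of droplets with 5 or more UMIs on the other-cell lists left 854 shallow and 1 deep droplet and gives no comparison.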
